A study of Canis lupus familiaris with 17 samples.

Results

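Among the genes that were lower in osteosarcoma (OS) over all circulating leukocytes of a dog, 8 were followed through the cells that carry them. They are SLCO5A1, BCAR3, NRIP1, WDFY4, FHIT, ANGPTL1, F8 and ENSCAFG00000023887, of 20257 genes counted in each of the 17 dogs, and all 8 were found by name or identifier in every dog. The members were chosen by the osteosarcoma-against-healthy differences over all cells, so these differences are given below as a description without a test. The question was which cells, B, T or myeloid, hold their transcripts, and how large the difference between the groups was inside the B cells.

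B cells arise in the bone marrow under the transcription factors PAX5 and EBF1, enter blood as immature and naive cells that carry MS4A1 (CD20) and CD22, and lose much of this program when they become plasma cells. In mixed blood leukocytes the level of a gene carried by B cells depends on how many of the cells are B cells and on how much each of them transcribes. The 8 genes do not form a known pathway. SLCO5A1 belongs to the organic anion transporter family. BCAR3 is an adaptor protein of cell adhesion signaling, and NRIP1 is a corepressor of nuclear receptors. WDFY4 is a BEACH domain protein needed by dendritic cells for cross-presentation of antigen, and FHIT is a dinucleoside hydrolase that spans a common chromosomal fragile site. ANGPTL1 is a secreted protein related to angiopoietins, and F8 is coagulation factor VIII, which is made largely by endothelial cells of the liver. ENSCAFG00000023887 has no symbol in the files.

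The cells were peripheral blood leukocytes from 7 clinically healthy dogs and 10 dogs with osteosarcoma, 1 library of 3′ single-cell RNA each, with the genotype given as Wt in both groups. The study collected the leukocytes by density gradient centrifugation, so shares of cells are shares of that fraction. The dogs were privately owned animals of differing breeds, and those with osteosarcoma were sampled before treatment with the primary tumor in place. The OS group held older dogs beside middle-aged ones, age is not among the sample records, and its part in the differences was not tested. Between 1332 and 7748 barcodes and between 7740230 and 56510134 unique molecular identifiers (UMIs) were deposited per dog, 84345 of 93013 barcodes were kept as cells, and no pair of libraries shared more than 22 barcodes. One library stood apart in its makeup: cells with neutrophil markers made up 32.8% of healthy dog 7 and between 1.13% and 7.22% of the other dogs. Levels are UMI counts per 1000000 UMIs of the cells named (CPM), with the mean ± SD over dogs. Since 3′ counting captures each gene differently, levels were compared between cells and dogs and not between genes.

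B cells were found by at least 1 UMI of MS4A1, T cells by a UMI of CD3E, CD3D or CD3G, and myeloid cells by at least 3 of 10 myeloid markers. Cells with MS4A1 numbered 4807 over the 17 dogs, and B cell genes marked them: PAX5 stood at 454 ± 180 CPM in MS4A1-positive cells of healthy dogs (n = 7) against 57.0 ± 19.8 CPM over all their cells. The gate was not clean in either direction. In healthy dogs 50.8% ± 9.82 of MS4A1-positive cells also met the CD3 or the myeloid gate, and in dogs with OS 55.0% ± 11.4 did. MS4A1 was also missed in many B cells. A broad B gate was therefore added after these data had been seen, which took cells with MS4A1 or with at least 2 of 7 further B cell markers, among them CD22, CD79B, PAX5, EBF1, TNFRSF13C and BTLA. It held 13.5% ± 4.18 of healthy cells, where MS4A1 alone held 7.27% ± 1.66. The broad gate also took in more transcripts of dendritic cell marker genes. The summed level of conventional dendritic cell markers had a healthy median of 168 CPM there, 58.7 CPM in MS4A1-positive cells and 120 CPM over all cells. For plasmacytoid dendritic cell markers these medians were 550, 356 and 141 CPM. RAB3C of that list stood at 1.08 ± 2.40 CPM in MS4A1-positive cells (n = 17). In cells with plasmacytoid dendritic cell markers it stood at 415 ± 175 CPM (n = 7). The summed level in the B gates therefore need not come from dendritic cells, and its source was not tested. CD3 and myeloid gates without any of these markers were added with it. Doublets were not called, and free RNA in the droplets was not removed.

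All 8 genes were higher in B cells than in T cells of the same dogs. SLCO5A1 stood at 47.5 ± 25.2 CPM in cells with MS4A1 alone and at 3.13 ± 2.51 CPM in cells with CD3 alone (15.6-fold, higher in 16 of 16 dogs, adjusted p = 3.2e-16, edgeR quasi-likelihood test with the dog as a block). WDFY4 stood at 1124 ± 479 against 33.0 ± 17.9 CPM (32.6-fold, 16 of 16 dogs, adjusted p = 5.6e-17). The smallest of the 8 differences was that of ANGPTL1, at 62.2 ± 21.6 against 21.6 ± 7.21 CPM (2.65-fold, 16 of 16 dogs, adjusted p = 3.7e-10). F8 was higher in 15 of 16 dogs, at 26.7 ± 20.7 against 1.41 ± 0.649 CPM (16.9-fold, edgeR adjusted p = 1.0e-13). Of 15508 genes tested, 11.7% were called higher in the MS4A1 gate by the same thresholds, an adjusted p under 0.01 and a log2 fold change over 0.58 in size. Dog 5 with OS took no part, since fewer than 25 of its cells carried MS4A1 alone. BCAR3, NRIP1 and F8 stand on B cell gene lists that the study drew from these same samples, so their place in B cells is not independent evidence.

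All 8 were also higher in the MS4A1 gate than in the myeloid gate, where 18.6% of 14704 genes were called higher. FHIT stood at 1008 ± 681 CPM in B cells against 44.1 ± 26.1 CPM in myeloid cells (17.1-fold, 16 of 16 dogs, adjusted p = 2.3e-20), and SLCO5A1 at 47.5 against 0.753 ± 0.531 CPM (49.8-fold, 16 of 16 dogs, adjusted p = 7.6e-19). WDFY4 differed least, with 358 ± 95.0 CPM in myeloid cells (2.33-fold, 16 of 16 dogs, adjusted p = 5.9e-12).

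T cells and myeloid cells carried the genes unequally: 6 of 8 were called higher in the CD3 gate (28.7% of 16081 genes) and WDFY4 lower (22.8%). WDFY4 was 12.9-fold lower in the CD3 gate than in the myeloid gate, in all 17 dogs (adjusted p = 7.0e-14, edgeR quasi-likelihood test). FHIT was 3.97-fold higher in the CD3 gate (adjusted p = 4.7e-14), ANGPTL1 4.96-fold (adjusted p = 3.9e-12) and ENSCAFG00000023887 2.78-fold (adjusted p = 2.9e-10), each in 17 of 17 dogs. The calls for SLCO5A1 and NRIP1, which were also higher in the CD3 gate, were lost when cells with any B marker were left out of both gates: SLCO5A1 then stood at 0.861 ± 0.651 against 0.448 ± 0.422 CPM (adjusted p = 0.081) and NRIP1 at 22.6 ± 6.10 against 15.3 ± 5.90 CPM (adjusted p = 0.018). BCAR3, FHIT, ANGPTL1 and ENSCAFG00000023887 kept their call (26.8% of genes higher), as did WDFY4 with 328.7 ± 102 CPM in the myeloid gate (24.6% lower). F8 did not differ past the thresholds between the CD3 and the myeloid gate (adjusted p = 0.31), and its log2 fold change turned from 0.26 to -0.57 in the gates without B markers. The value also moved with the number of myeloid markers asked for, to -0.67 with 2 and to 1.05 with 5, both past the thresholds.

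The CD3 gate also held B cell transcripts, and the levels of SLCO5A1, WDFY4 and F8 there were lower without the cells that had B markers. In all 17 dogs WDFY4 went from 31.95 ± 17.9 to 5.15 ± 2.73 CPM, SLCO5A1 from 2.98 ± 2.51 to 0.861 ± 0.651 CPM and F8 from 1.41 ± 0.629 to 0.717 ± 0.369 CPM (SD, n = 17), while FHIT stood at 185 ± 81.6 and 169 ± 80.2 CPM and ANGPTL1 at 23.1 ± 9.30 and 21.3 ± 9.37 CPM. Against this cleaner CD3 gate, MS4A1-positive cells had 192-fold more WDFY4, 48.7-fold more SLCO5A1 and 42.8-fold more F8, each in 17 of 17 dogs, and all 8 genes were called higher (13.9% of genes tested). Against the myeloid gate without B markers all 8 were called as well (22.2% of genes), from 2.42-fold for WDFY4 to 72.0-fold for SLCO5A1.

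Where the UMIs lay followed from level and cell number together. MS4A1-positive cells held 5.48% ± 2.33 of all UMIs of a dog (n = 17). They held 48.3% ± 17.7 of the F8 UMIs and 42.8% ± 12.3 of those of SLCO5A1, but 19.7% ± 8.27 of those of ANGPTL1, 20.2% ± 8.35 of those of ENSCAFG00000023887, and between 23.4% and 27.1% of those of BCAR3, NRIP1, WDFY4 and FHIT. In the broad B gate, which held 9.54% ± 4.13 of all UMIs, the share was 81.3% ± 12.5 for SLCO5A1, 70.8% ± 20.3 for F8 and 52.6% ± 13.6 for NRIP1. For the other 5 genes the mean over all dogs lay between 32.4% and 46.1%. For the same 5 genes the mean share lay between 39.3% (ANGPTL1) and 52.6% (BCAR3) in healthy dogs. In dogs with OS it lay between 27.5% (ANGPTL1) and 41.5% (BCAR3). The gate's share of all UMIs was also lower in OS, with a mean of 12.6% in healthy dogs and 7.38% in dogs with OS. A lower share in OS was thus not particular to these genes, and the group difference in shares was not tested. The broad gate also held transcripts of dendritic cell marker genes, so its shares need not be of B cells alone. Cells with CD3 and no B marker held 51.5% ± 11.3 of the ANGPTL1 UMIs, 43.5% ± 12.1 of those of ENSCAFG00000023887, 42.3% ± 10.0 of those of FHIT and 34.2% ± 12.4 of those of BCAR3. Myeloid cells with no B marker held 38.8% ± 11.2 of the WDFY4 UMIs.

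**Figure D1:**
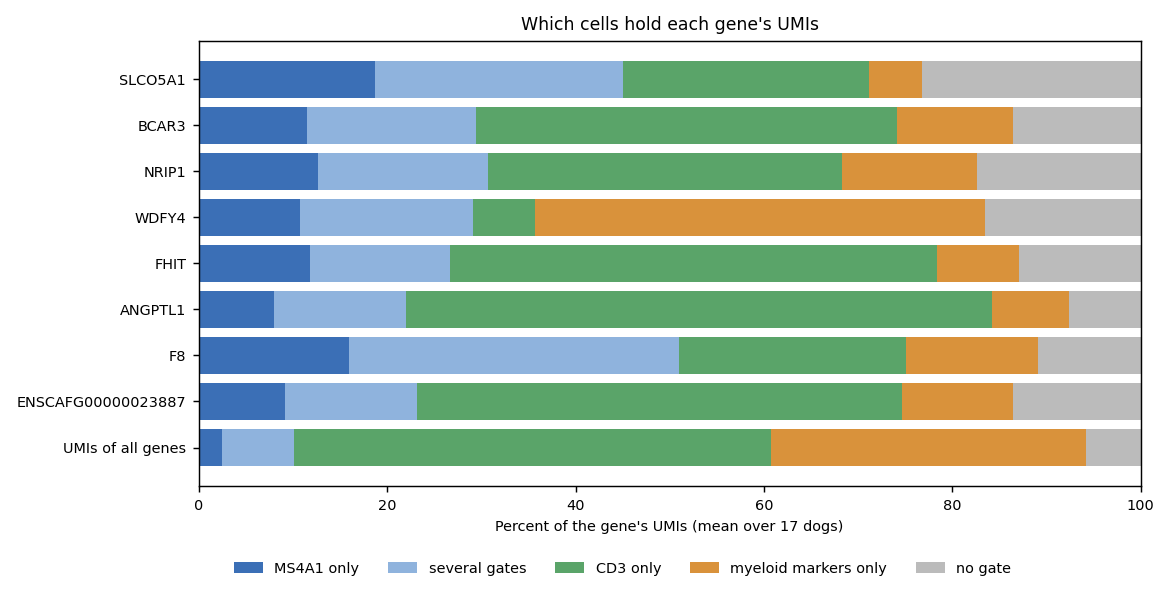
Share of each gene's UMIs, in percent, in cells with MS4A1 alone, in cells that met several gates, with CD3 alone, with myeloid markers alone and with none of these, as means over 17 dogs. The lowest bar gives the same for all UMIs, of which cells with MS4A1 alone held 2.45%, against 18.7% for SLCO5A1 and 7.98% for ANGPTL1.

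Finer marker gates separated the 8 genes further. WDFY4 stood at 1017 ± 266 CPM in cells with neutrophil markers (n = 17) and at 885 ± 264 CPM in cells with conventional dendritic cell markers (n = 15 dogs with at least 25 such cells), ranges that overlap with its 1060 ± 484 CPM in MS4A1-positive cells. It stood at 271 ± 82.0 CPM in cells with monocyte markers (n = 17) and at 273 ± 47.7 CPM in those with plasmacytoid dendritic cell markers (n = 7). In T cells it was near its minimum, at 4.43 ± 3.60 CPM in those with LEF1 and CCR7, which mark naive and central memory T cells, and at 4.87 ± 3.39 CPM in those with cytotoxic markers.

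ANGPTL1 divided the T cells. It stood at 40.8 ± 12.8 CPM in CD3 cells with LEF1 and CCR7 and at 1.34 ± 1.01 CPM in those with cytotoxic markers, and the ranges over 17 dogs, 22.3 to 71.4 and 0 to 3.03 CPM, did not overlap. Cells with neutrophil markers came to 12.1 ± 8.88 CPM. FHIT was spread over all lymphocytes, at 177 ± 82.2 and 145 ± 79.2 CPM in the same T cell gates, and was lowest in cells with neutrophil markers, at 9.17 ± 8.21 CPM. ENSCAFG00000023887 reached 52.7 ± 12.7 CPM in cells with plasmacytoid dendritic cell markers (n = 7), a range of 41.1 to 72.0 CPM that lies within its range in MS4A1-positive cells.

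BCAR3 was highest outside the B cells in cells with conventional dendritic cell markers, at 16.04 ± 14.7 CPM (n = 15). F8 reached 6.62 ± 4.91 CPM in cells with neutrophil markers (n = 17). SLCO5A1 was at or under 2.43 CPM on average in every one of these gates outside the B lineage. Cells with plasma cell markers, from the 6 dogs that had enough of them, held 11.1 ± 4.41 CPM of SLCO5A1 against 44.0 ± 23.1 CPM in MS4A1-positive cells (n = 17), and 0.883 ± 0.775 CPM of F8 against 32.9 ± 19.5 CPM.

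**Figure D2:**
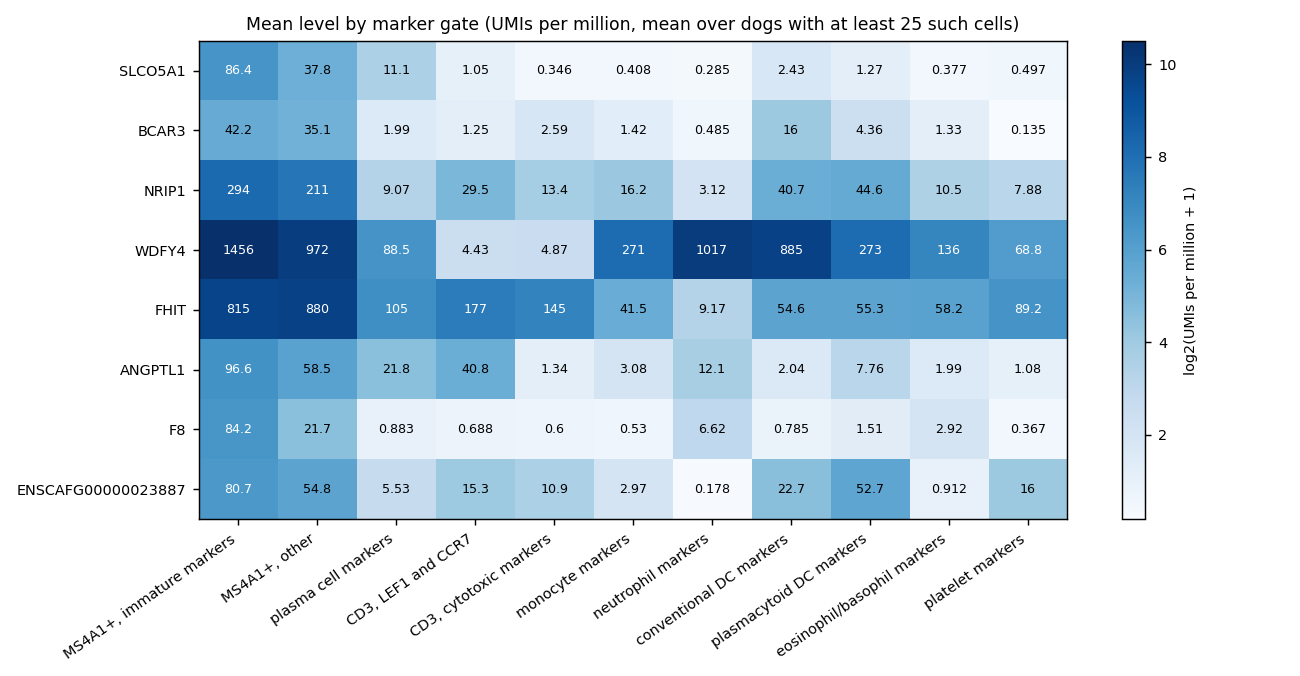
Mean level of each gene, in CPM over dogs with at least 25 cells of the gate, in 11 marker gates, with darker cells for higher values on the scale log2(CPM + 1). Rows are to be read along, not compared with each other: WDFY4 stood at 1017 CPM in the neutrophil column and 885 CPM in that of conventional dendritic cells, and SLCO5A1 at 0.285 and 2.43 CPM.

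Within the B cells, 5 of the 8 members were higher in cells with markers of immature B cells, as were 9.18% of 12555 genes. MS4A1-positive cells with at least 3 of 8 such markers were compared with the other MS4A1-positive cells of the same dogs, in the 13 dogs with at least 25 of each, by an exact two-sided sign-flip permutation test on log2(CPM + 1), run on each gene with at least 10 UMIs other than the markers, with p adjusted over all of them and a threshold of 0.05. F8 stood at 84.2 ± 40.5 against 22.8 ± 15.5 CPM (higher in 12 of 13 dogs, adjusted p = 0.020), SLCO5A1 at 86.4 ± 39.2 against 42.8 ± 22.6 CPM (12 of 13 dogs, adjusted p = 0.0075) and WDFY4 at 1456 ± 357 against 943 ± 397 CPM (13 of 13 dogs, adjusted p = 0.0054). ANGPTL1 and ENSCAFG00000023887 were higher as well, in 12 and 11 of 13 dogs (exact permutation test, adjusted p = 0.0075 and 0.014). NRIP1 had the higher value in 10 of 13 dogs and BCAR3 and FHIT in 8 each, and these 3 did not pass (exact permutation test, adjusted p = 0.094, 0.94 and 0.58). With 2 markers in place of 3, 7 members passed in 15 dogs, as did 15% of 12721 genes, with BCAR3 at 50.4 ± 25.5 against 29.5 ± 13.3 CPM (14 of 15 dogs, exact permutation test, adjusted p = 0.015), and FHIT did not (adjusted p = 0.069). Other genes differed in level across this split: JCHAIN, a plasma cell gene, stood at 16.96 ± 15.1 CPM in the cells with immature markers (n = 13) and at 528 ± 316 CPM in the other MS4A1-positive cells (n = 17), CD3E at 39.1 ± 27.8 and 87.3 ± 46.7 CPM, the neutrophil gene S100A12 at 33.4 ± 64.3 and 177 ± 254 CPM, the myeloid gene LYZ at 1312 ± 840 and 974 ± 507 CPM, and PAX5 at 703 ± 156 and 349 ± 150 CPM. Their part in the differences was not tested. The 8 markers come from a list of the study drawn from these samples, and F8 was on that list, so its difference is no independent evidence. F8 and PAX5 were not used here to choose the cells.

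Among CD3 cells, those with LEF1 and CCR7 were compared with those that had neither, a split in which 17.2% of 14956 genes were higher and 33.8% lower by the same test. ANGPTL1 stood at 40.2 ± 11.9 against 9.15 ± 5.77 CPM, higher in 17 of 17 dogs, and BCAR3 at 1.68 ± 0.897 against 11.1 ± 8.21 CPM, lower in 17 of 17 dogs (exact sign-flip permutation test, adjusted p = 8.9e-05 for both). Both calls were kept when cells with B markers were left out (18.1% of genes higher and 31.5% lower), with ANGPTL1 at 40.0 ± 12.4 against 3.84 ± 3.43 CPM and BCAR3 at 1.28 ± 0.775 against 8.51 ± 7.66 CPM. SLCO5A1, WDFY4 and F8 were lower in the LEF1 and CCR7 cells by the same test (adjusted p = 0.0011, 0.00021 and 0.0024), but none of these 3 passed without the cells that carried B markers. The mean log2 difference then turned to 0.35 for SLCO5A1 and 0.16 for F8 and was -0.55 for WDFY4. NRIP1, FHIT and ENSCAFG00000023887 passed an adjusted p of 0.05 only then. NRIP1 stood at 29.3 ± 9.40 against 14.5 ± 5.22 CPM (higher in 16 of 17 dogs, exact permutation test, adjusted p = 0.00015), FHIT at 177 ± 82.2 against 149 ± 77.7 CPM (14 of 17 dogs, adjusted p = 0.027) and ENSCAFG00000023887 at 15.4 ± 3.94 against 12.5 ± 3.71 CPM (13 of 17 dogs, adjusted p = 0.038).

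Over all cells of a dog, the values that chose the members were as follows. SLCO5A1 ran from 5.26 through a median of 7.40 to 16.99 CPM in the 7 healthy dogs and from 1.04 through 2.92 to 5.01 CPM in the 10 dogs with OS (log2 fold change -1.66, SE 0.28). The groups did not overlap, and the highest dog with OS lay just under the lowest healthy dog. BCAR3 ran from 7.21 through 9.63 to 17.4 CPM in healthy dogs and from 3.51 through 4.58 to 7.07 CPM in dogs with OS (log2 fold change -0.92, SE 0.17), again without overlap. Of 16353 genes tested, 5 had every dog with OS below every healthy dog (0.0306%). The other 3 of these, named here after their values had been seen, were RMI1, SYNPO and ENSCAFG00000030667.

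The other 6 members overlapped between the groups. F8 ran from 2.97 through 4.91 to 8.02 CPM in healthy dogs and from 0.750 through 1.77 to 4.84 CPM in dogs with OS (log2 fold change -1.28, SE 0.31), and dog 9 with OS was the highest of its group. NRIP1 ran from 38.3 through 56.1 to 68.8 CPM and from 21.1 through 33.1 to 46.1 CPM (log2 fold change -0.70, SE 0.15). ANGPTL1 ran from 16.2 through 23.8 to 30.6 CPM and from 9.64 through 13.5 to 18.7 CPM (log2 fold change -0.66, SE 0.15). In these 3 genes every dog with OS lay below the healthy median.

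ENSCAFG00000023887 ran from 12.7 through 21.6 to 24.2 CPM in healthy dogs and from 7.74 through 12.3 to 17.1 CPM in dogs with OS (log2 fold change -0.67, SE 0.15), where healthy dog 7 alone among the healthy fell into the range of the OS group. WDFY4 ran from 207 through 317 to 412 CPM and from 113 through 191 to 288 CPM (log2 fold change -0.57, SE 0.14), again with all dogs with OS below the healthy median. Healthy dog 7, with its many neutrophil-marker cells, stood at 386 CPM of WDFY4, and without the cells of the myeloid gate the log2 fold change of WDFY4 was -0.82. FHIT ran from 113 through 250 to 475 CPM in healthy dogs and from 95.0 through 117 to 300.4 CPM in dogs with OS (log2 fold change -0.66, SE 0.23).

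By log2 fold change the members were the 66th to 944th lowest of the genes tested, so the name lowest does not hold for the size of the difference. By the log2 fold change over its standard error they ranked from 1 for SLCO5A1 to 130 for FHIT. All 8 had a log2 fold change below 0, which the choice of members fixed, as had 48.9% of the genes tested. No gene passed both thresholds over all cells in edgeR (0%), 922 (5.64%) had an unadjusted p under 0.05, and DESeq2 called 3 genes. The DESeq2 calls were SLCO5A1, BCAR3 and, named after its values had been seen, MSANTD3-TMEFF1. Both members among them were chosen on these same values, so their calls support nothing. In sums over whole samples, fewer cells of a type and less RNA per cell cannot be told apart, and the gates were used for that reason.

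**Figure D3:**
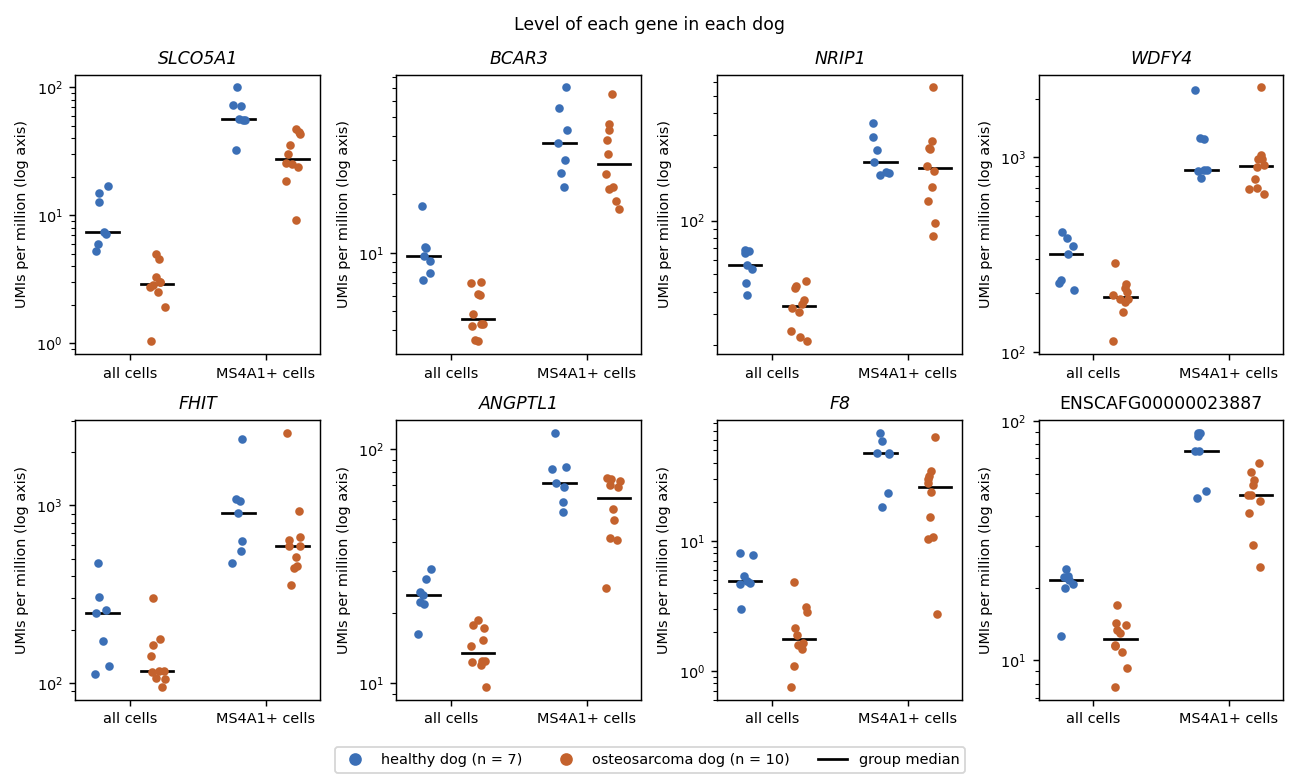
Level of each gene in each dog, in CPM on a log axis, over all cells (left in each panel) and in MS4A1-positive cells (right), with 7 healthy dogs in blue, 10 dogs with osteosarcoma in orange and the group median as a bar. SLCO5A1 and BCAR3 do not overlap between groups over all cells, and none of the 8 genes is without overlap in MS4A1-positive cells.

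Within MS4A1-positive cells the difference was smaller for all 8 genes, and the groups overlapped in each. The median of the 8 log2 fold changes was -0.37, against -0.69 over all cells, while that of all genes tested was -0.009 and 0.005. All 8 were below 0 in MS4A1-positive cells, where 51.4% of the genes tested were, and none was without overlap between groups (0% of genes). The cells of every gate are part of the sums over all cells that chose the members, so their direction in any gate is not independent of that choice, a smaller difference than the one they were chosen by can follow from the choice itself, and nothing is read from the counts below 0 here or in the gates that follow. SLCO5A1 kept the largest difference: it ran from 32.2 through 56.6 to 100.2 CPM in healthy dogs and from 9.25 through 27.8 to 47.5 CPM in dogs with OS (log2 fold change -0.98, SE 0.24). All 10 dogs with OS lay below the healthy median, and healthy dog 4 was the only healthy dog within their range. ENSCAFG00000023887 ran from 47.5 through 74.7 to 89.0 CPM and from 24.7 through 49.1 to 66.6 CPM (log2 fold change -0.51, SE 0.17), also with 10 of 10 below the healthy median.

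F8 ran from 18.1 through 47.4 to 67.5 CPM and from 2.72 through 25.7 to 63.4 CPM (log2 fold change -0.71, SE 0.36), with 9 of 10 below the healthy median. Its values rest on few molecules, 3 UMIs in dog 3 with OS and 5 in each of dogs 5 and 8 with OS. ANGPTL1 (log2 fold change -0.36, SE 0.18) and FHIT (-0.38, SE 0.31) had 7 and 8 of 10 dogs below the healthy median.

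NRIP1, BCAR3 and WDFY4 had the smallest log2 fold changes of the 8 in these cells. NRIP1 stood at 237 ± 65.1 CPM in healthy dogs and at 220 ± 137 CPM in dogs with OS (log2 fold change -0.14, SE 0.25), and BCAR3 at 40.4 ± 17.5 and 32.7 ± 15.3 CPM (log2 fold change -0.30, SE 0.24). WDFY4 stood at 1157 ± 511 and 992 ± 479 CPM (log2 fold change -0.20, SE 0.20), with 4 of 10 dogs with OS below the healthy median. Healthy dog 2 and dog 3 with OS stood above the rest of their groups in these cells, at 2228 and 2296 CPM of WDFY4 and 2352 and 2555 CPM of FHIT, and the latter dog had 43 MS4A1-positive cells. Without healthy dog 2 the log2 fold change was -0.04 for WDFY4 and -0.11 for FHIT, and without dog 3 with OS it was -0.35 for WDFY4, -0.70 for FHIT and -0.30 for NRIP1. ANGPTL1 came to -0.22 without healthy dog 7. BCAR3 came to -0.46 when dog 1 with OS was left out, and to -0.18 and -0.17 when healthy dog 1 or 2 was. NRIP1 came nearest to 0 without healthy dog 5, at -0.03, and was between -0.09 and -0.04 without dogs 2, 4 or 5 with OS. No gene was called in these cells in edgeR or in DESeq2 (0%), and 568 of 12787 (4.44%) had an unadjusted p under 0.05 in edgeR.

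The gate set part of these values. In the broad B gate the median of the 8 was -0.42 and all were below 0 (49.8% of genes), with SLCO5A1 at -0.99 (SE 0.22), ENSCAFG00000023887 at -0.47 (SE 0.11), BCAR3 at -0.45 (SE 0.24), WDFY4 at -0.22 (SE 0.18) and NRIP1 at -0.16 (SE 0.23). There 8 of 10 dogs with OS lay below the healthy median of BCAR3 and of WDFY4, and 6 of 10 below that of NRIP1. Conventional and plasmacytoid dendritic cell markers stood higher in the broad gate than in MS4A1-positive cells. On each of these lists 6 of 7 had a log2 fold change above 0 there, with medians of 0.46 and 0.39. With at least 2 of 8 B markers other than MS4A1, BANK1 among them, the median was -0.72. BANK1 was left out of the broad gate since myeloid cells also carry it, so this gate of 8 markers can hold other cells. Their part in its median was not tested. Markers of other cells also had values in MS4A1-positive cells, where none was called between the groups and their summed levels overlapped: 10 of 10 myeloid gate markers had a log2 fold change above 0, with their summed level from 869 to 1764 CPM in healthy dogs and from 503 to 3624 CPM in dogs with OS, as had 3 of 3 CD3 genes, 8 of 8 neutrophil markers, 8 of 8 monocyte markers and 7 of 7 platelet markers. Of plasma cell markers 8 of 8 were above 0, with a median of 0.32. Their summed level ran from 263 through a median of 1407 to 1986 CPM in healthy dogs and from 344 through 1067 to 3683 CPM in dogs with OS. The median of the sum thus lay lower in OS. SLCO5A1 and F8 were low in cells with plasma cell markers. The part of all these markers in the values was not tested. Leaving out the MS4A1-positive cells that met another gate left SLCO5A1 at -0.92, F8 at -0.70 and ENSCAFG00000023887 at -0.54, and put BCAR3 at -0.04.

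**Figure D4:**
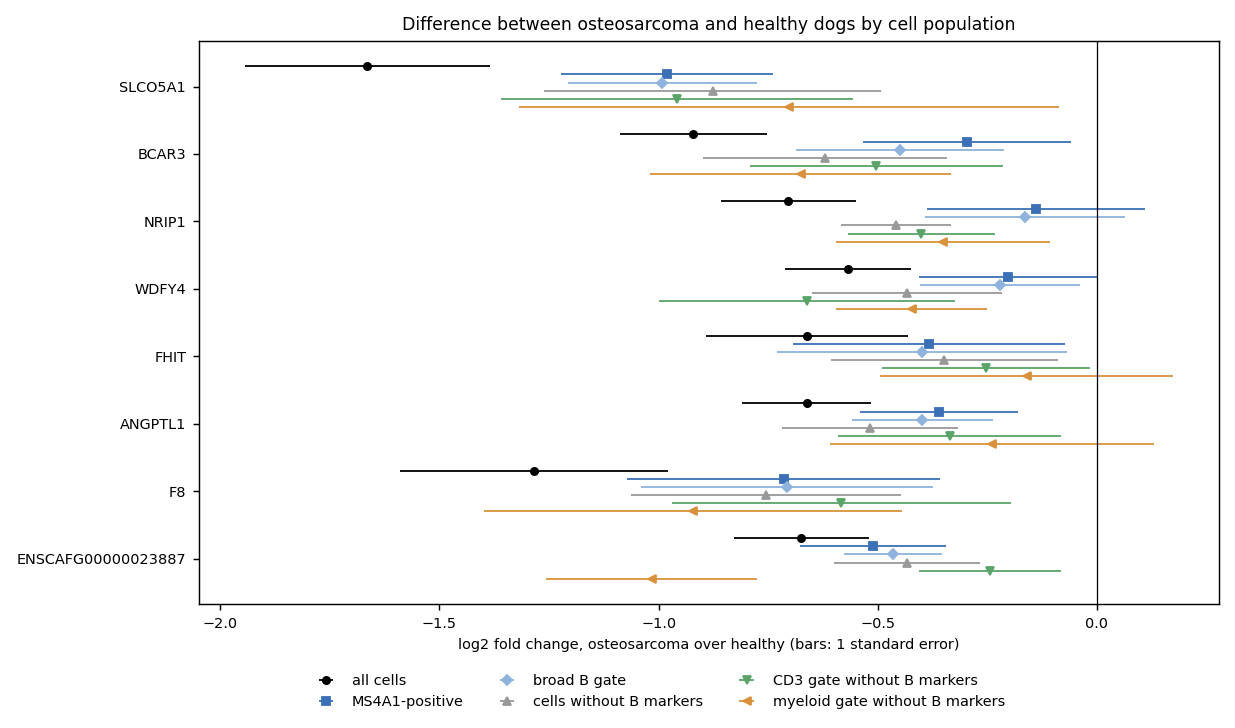
Log2 fold change of OS over healthy for each gene in 6 cell populations, with bars of 1 standard error. All points lie left of 0. NRIP1, at -0.14, WDFY4, at -0.20, and BCAR3, at -0.30, lie closest to 0 in MS4A1-positive cells.

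Outside the MS4A1-positive cells the members were lower in OS by about as much as over all cells, with a median log2 fold change of -0.65 and all 8 below 0 (49% of genes). SLCO5A1 (log2 fold change -1.66, SE 0.29), BCAR3 (-0.92, SE 0.19) and F8 (-1.16, SE 0.21) had no overlap between groups there, as had 5 of 16286 genes (0.0307%). The other 2 of these, named after their values had been seen, were ENSCAFG00000030667 and SLC4A11. Averaged over the 17 dogs, these cells held the larger part of each member's UMIs, so these counts follow in large part from the choice of the members. These cells still held B cells without a captured MS4A1 UMI. In cells with no B marker at all the median was -0.49 with all 8 below 0 (49.5% of genes), in cells that held between 13.6% (SLCO5A1) and 60.6% (ANGPTL1) of a member's UMIs, and no gene was without overlap with OS lower (0%).

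In that population SLCO5A1 stood at 1.04 ± 0.603 CPM in healthy dogs and at 0.557 ± 0.316 CPM in dogs with OS (log2 fold change -0.88, SE 0.38), and F8 at 1.10 ± 0.557 and 0.656 ± 0.323 CPM (-0.76, SE 0.31). For both these levels are low, and whether they come from B cells missed by every marker, from free RNA or from other cells was not tested. NRIP1 stood at 24.0 ± 3.94 and 16.6 ± 2.79 CPM (log2 fold change -0.46, SE 0.13), with 10 of 10 dogs with OS below the healthy median, and BCAR3 at 5.09 ± 2.49 and 3.12 ± 1.13 CPM (-0.62, SE 0.28), also with 10 of 10.

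In the CD3 and the myeloid gate without B markers all 8 were below 0 (49.6% and 52.3% of genes), by unequal sizes. ENSCAFG00000023887 stood at 5.28 ± 1.71 against 2.52 ± 0.727 CPM in the myeloid gate (log2 fold change -1.02, SE 0.24, 10 of 10 dogs with OS below the healthy median) and at 16.2 ± 3.20 against 13.4 ± 3.66 CPM in the CD3 gate (-0.24, SE 0.16, 8 of 10). In cells with monocyte markers it stood at 4.39 ± 1.42 against 1.97 ± 0.806 CPM (log2 fold change -1.06, SE 0.26). This gene stood high in cells with plasmacytoid dendritic cell markers. In the myeloid gate without B markers 7 of 7 of those markers were below 0, with summed medians of 144 CPM in healthy dogs and 114 CPM in OS. Naive T cell markers there had 4 of 4 below 0, with summed medians of 592 and 636 CPM. The part of such cells in either gate was not tested. WDFY4 stood at 391 ± 106 against 285 ± 78.1 CPM in the myeloid gate (-0.42, SE 0.17). FHIT stood at -0.25 (SE 0.24) in the CD3 gate and at -0.16 (SE 0.33) in the myeloid gate. In cytotoxic T cells BCAR3 stood at 3.30 ± 4.49 CPM in OS against 1.57 ± 1.10 CPM in healthy dogs (log2 fold change 0.66, SE 0.63), a difference within the spread between dogs. NRIP1 in cells with neutrophil markers, with 24 UMIs over the 17 dogs, stood at 4.12 ± 6.08 against 1.69 ± 2.82 CPM (medians 0.609 and 0 CPM), also within that spread. These gates share their dogs, and the difference between gates was not tested.

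MS4A1-positive cells themselves made up a smaller share of the collected cells in OS. They made up from 5.42% through a median of 6.62% to 10.0% of cells in healthy dogs and from 1.31% through 4.23% to 8.82% in dogs with OS (mean 7.27% ± 1.66 against 4.62% ± 2.38, two-sided exact Wilcoxon test, p = 0.025, n = 7 and 10), and 8 of 10 dogs with OS lay below the healthy median. The broad B gate gave 13.5% ± 4.18 against 7.76% ± 3.53 (exact Wilcoxon test, p = 0.014). The test did not pass with at least 2 UMIs of MS4A1 (3.53% ± 1.32 against 2.29% ± 1.41, exact p = 0.088) or without healthy dog 1 (exact p = 0.056). The study describes a neutrophil yield of the gradient that varied between samples, which can alter such shares. It also reported B cells underrepresented in OS. It found no difference between healthy and middle-aged dogs with OS, nor between middle-aged and old dogs with OS. Its authors believed that age likely had a part in the reduction.

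The difference over all cells can be divided arithmetically into a part from the share of UMIs in MS4A1-positive cells, a part from the level inside them and a part from the level in the rest. The median over the 8 genes was 19.2% from the share, 13.02% from inside and 68.2% from the rest. With the broad B gate it was 40.1%, 25.1% and 34.96%, so the division depends on how B cells are taken. SLCO5A1 and F8 had the largest part from inside the broad gate, 53.0% and 45.3%. Among the 8 genes, the part from its share was largest for NRIP1, WDFY4, F8 and FHIT, at 54.3%, 45.9%, 41.5% and 41.3%. For F8 the part from inside was larger still. ANGPTL1 had 52.1% from cells outside the gate. This is a description of group means without an error.

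Dogs of one group also differed in these levels. The level over all cells, as log2(CPM + 1), was set against the share of MS4A1-positive cells within each group. SLCO5A1 had Pearson's r = 0.87 in the 7 healthy dogs (exact permutation p = 0.017, adjusted over 16 relations p = 0.28, Spearman's rho = 0.79, exact permutation p = 0.048, adjusted p = 0.19) and r = 0.87 without the 2 dogs farthest from the median share. In the 10 dogs with OS it had r = 0.53 (permutation p = 0.12, adjusted p = 0.35, rho = 0.55, permutation p = 0.11, adjusted p = 0.22) and r = 0.86 without the 2 farthest. ENSCAFG00000023887 in dogs with OS had r = 0.63 (permutation p = 0.048, adjusted p = 0.28, rho = 0.67, permutation p = 0.038, adjusted p = 0.19) and r = 0.81 without the 2 farthest. None of the 16 relations passed after adjustment, and ANGPTL1 and FHIT in dogs with OS had an r below 0. Without the 2 farthest dogs r also fell in places. In healthy dogs it went from 0.38 to -0.21 for F8, from 0.39 to 0.11 for WDFY4 and from 0.56 to 0.35 for FHIT.

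**Figure D5:**
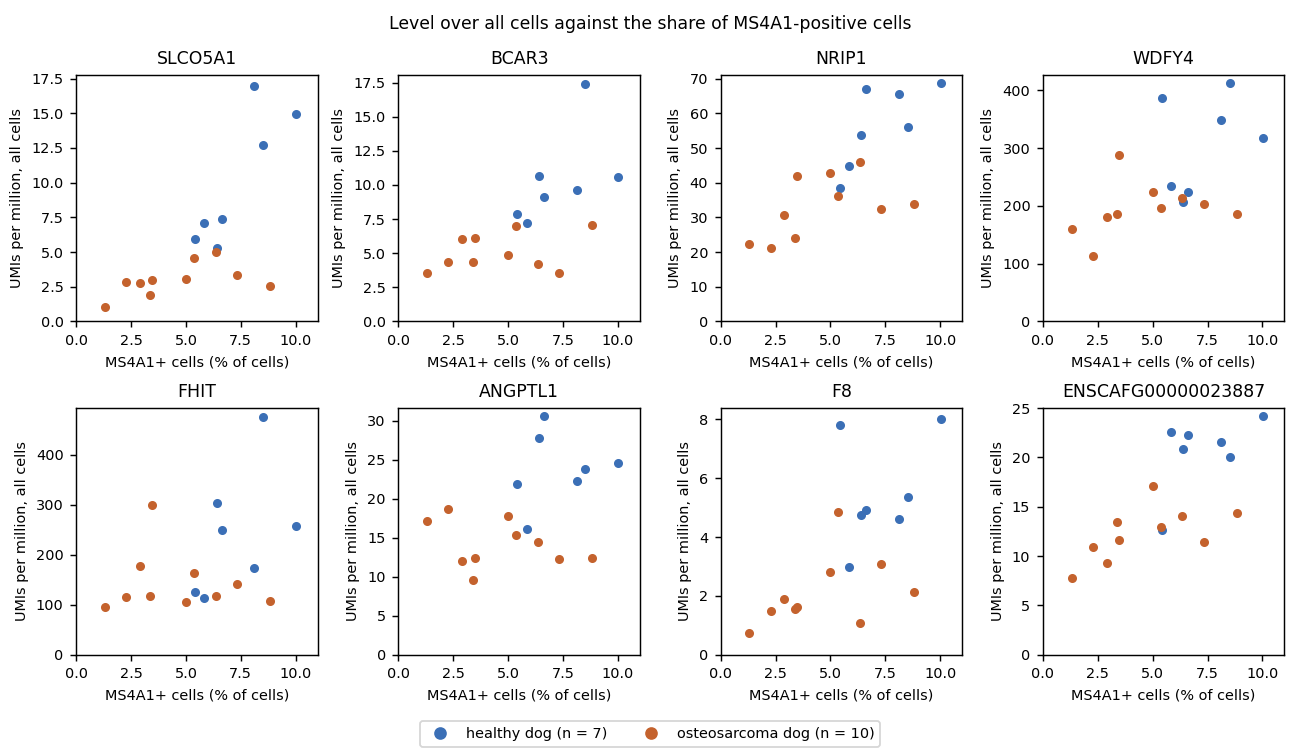
Level of each gene over all cells, in CPM, against the share of MS4A1-positive cells, in percent of cells, with each dog as a point (7 healthy in blue, 10 with osteosarcoma in orange). Pearson's r was taken on log2(CPM + 1) and not on the CPM drawn. In healthy dogs r was 0.87 for SLCO5A1 and 0.22 for ANGPTL1, and no relation passed after adjustment over the 16.

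Genes of B cell identity were described in the same cells. Over all cells 16 of the 18 genes tested on a list of 20 had a log2 fold change below 0, with a median of -0.45, and none was called. The 3 that differed most were PAX5, EBF1 and CD22. PAX5 stood at 57.0 ± 19.8 CPM in healthy dogs and 26.9 ± 12.6 CPM in dogs with OS (log2 fold change -1.001, SE 0.30), EBF1, which acts with it, at 49.5 ± 21.3 and 23.3 ± 11.4 CPM (-0.99, SE 0.32) and CD22, a receptor that dampens B cell signals, at 11.6 ± 4.86 and 5.79 ± 2.52 CPM (-0.93, SE 0.31). Within MS4A1-positive cells 11 of 18 were below 0, with a median of -0.08, and PAX5 (-0.21, SE 0.20), EBF1 (-0.25, SE 0.19) and CD22 (-0.07, SE 0.18) were close to 0. CD79A stood at about the same level over all cells as in MS4A1-positive cells, 5954 ± 1504 against 5948 ± 1300 CPM in healthy dogs, so the entry of that name did not mark B cells here.

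Parts of the study's B cell subset lists were used: beside the members, PAX5 was left out of both, and IGKC, IGHM and TNFRSF13C of the activated list. VPREB3 stands on both the immature and the identity list. Of the immature B cell genes 8 of 8 were below 0 over all cells (median -0.68) and 6 of 8 in MS4A1-positive cells (median -0.17). The 4 activated B cell genes used were all below 0 in both, with medians of -0.84 and -0.54. The summed levels in MS4A1-positive cells did not follow: their median was higher in OS for both lists. It was 503 CPM in healthy dogs and 530 CPM in OS for the immature genes, and 200 and 237 CPM for the activated genes. No gene of these lists was called, and both lists were drawn from these samples.

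The genes most like each member over the 17 dogs were sought after the group means had been removed, among 7735 genes with a mean of at least 10 CPM. SLCO5A1 ran most closely with CACNB2 (r = 0.78) and HTR1F (r = 0.75), both on the study's B cell lists, which were drawn from these samples. NRIP1 ran with SP140 (r = 0.87) and SLC9A7 (r = 0.82), WDFY4 with CLCN5 (r = 0.89) and ST6GAL1 (r = 0.88), and F8 with ARSG (r = 0.74) and SLAMF6 (r = 0.73). BCAR3 ran with ZNF831, which is on the study's regulatory T cell list, and ZNF800 (r = 0.84 for both). FHIT ran with ZBTB20 and ELOVL5 (r = 0.93 for both), ANGPTL1 with MAX (r = 0.75) and GALNT2 (r = 0.74), and ENSCAFG00000023887 with PGM2L1 (r = 0.79) and AJUBA (r = 0.76). These are descriptions over libraries that also share depth and cell makeup.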

How the data were processed

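The deposited values were raw UMI counts per gene and cell, 1 matrix per dog, which per the submitters' processing notes the authors made with Cell Ranger 7.0.0 on CanFam3.1. By the study's methods reads were counted both with and without introns. The sources used here do not say which version was deposited, and levels of genes with long introns, such as WDFY4 and FHIT, depend on it. Members and gene lists were chosen with earlier results of these data known.

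Barcodes were kept between 200 and 4500 genes and between 500 and 20000 UMIs, with a mitochondrial share below 10%. Counts were summed per dog and gate (dogs with 25 or more cells in it) and genes reaching 10 UMIs were fitted with edgeR 4.0.16 in R 4.3.3 (TMM, quasi-likelihood test, Benjamini-Hochberg adjustment). Calls needed an adjusted p under 0.01 and a log2 fold change over 0.58 in size. DESeq2 1.42.0, other size factors, count filters, gates and cell limits, and leaving out each dog, were alternatives. CPM values carry no TMM factor. Tests took the dog as the unit: p-values set a difference, paired within dogs where gates were compared, against its variation over dogs. Those of correlations come from permuting dogs within a group. Depth limits the small gates. Finer gates took cells with at least 3 markers of their list. Plasma cells needed 5, with JCHAIN and MZB1 among those detected. Neutrophils needed 2 of ALDH1A2, IL1R2 and GGH, with at most 1 monocyte marker. The finer T cell, monocyte, neutrophil, eosinophil and basophil, and platelet gates left out cells with any B marker. The dendritic cell gates left out only those with MS4A1, and the plasma cell gate left out neither. Permutations (Python 3.11.15, scipy 1.17.1) were exact, except 100000 resamples for correlations in OS. Scripts were tested on simulated data. One of the 7 markers of the broad B gate is not reported here. Named genes were the members, the 3 B cell identity genes that differed most over all cells, and 2 genes most like each member. Genes outside this rule are named as markers or after their values had been seen. In the subset tests, adjusting p over all genes in place of the members was chosen after seeing the data.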

Additional observations from a re-analysis of the deposited data

Results flagged for a closer look

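In 9 of the 32 sets of dogs examined (each gene in each group, over all cells and in MS4A1-positive cells), 1 dog stood apart from the rest of its group by Dixon's test. Chance gives this in about 1 of 20 groups of normally distributed values. The test was run on CPM values, which can be skewed, so that rate need not hold here. Over all cells BCAR3 was high in healthy dog 2, at 17.4 CPM, FHIT was high in dog 3 with OS, at 300.4 CPM, and ENSCAFG00000023887 was low in healthy dog 7, at 12.7 CPM. In MS4A1-positive cells healthy dog 2 was high in WDFY4, at 2228 CPM, and in FHIT, at 2352 CPM. Dog 3 with OS was high there in WDFY4, at 2296 CPM, in FHIT, at 2555 CPM, and in NRIP1, at 559 CPM, over 43 cells. F8 was high in MS4A1-positive cells of dog 9 with OS, at 63.4 CPM. The genes share these dogs, so the 9 sets are not independent.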

How the results depend on the processing

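Of the results that answer a comparison, 62 of 68 alternatives and 135 of 136 fits without 1 dog counted as kept. This asked for the same direction and, for a median log2 fold change, a shift under 1 SD between dogs. Counts had to be of similar size, and the share test had to stay on the same side of 0.05. The limit is wide: the median with 2 of 8 other B markers counted as kept, though it was about as large as over all cells. DESeq2 called 3 genes over all cells, where edgeR called 0, but 2 of the 3 are members chosen on these values, so their calls support nothing. With 2 UMIs of MS4A1 the share of MS4A1-positive cells differed by -1.24 percentage points, and without 1 dog by -3.12 to -2.20 points (highest exact Wilcoxon p = 0.056, without healthy dog 1). The broad B gate moved the median share of member UMIs from 25.1% to 43.8%, and the division of the difference to 40.1%, 25.1% and 34.96%. F8 in the CD3 over the myeloid gate turned to -0.67 with 2 myeloid markers (edgeR adjusted p = 0.0061) and to -0.57 without B markers, and rose to 1.05 with 5 myeloid markers (adjusted p = 0.00086), so its direction depends on this gate. Between T cells with and without LEF1 and CCR7, ENSCAFG00000023887 turned to -0.0030 with a pseudocount of 5, and without B markers SLCO5A1 turned to 0.35, NRIP1 to 0.98, FHIT to 0.30 and F8 to 0.16. The cause was not tested. Same-numbered dogs are different animals (correlations of their deviations -0.48 to 0.44), and with a replicate block the members' medians were -0.77 over all cells and -0.40 in MS4A1-positive cells, with 0 genes called and 575 and 355 at an unadjusted p under 0.05, against 922 and 568 without it. In MS4A1-positive cells this count was 282 with filterByExpr and 1912 with 2 of 8 other B markers. Few MS4A1-positive cells (43 to 604 per dog) limit genes with few UMIs there, such as F8 and BCAR3 (1050 and 1060 UMIs over the 17 dogs).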

Other observations

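Marker lists of other cells, over all cells, gave no called gene. Of monocyte markers 7 of 8 were above 0 in OS (median log2 fold change 0.59), of neutrophil markers 5 of 8 (0.24), and of markers of polymorphonuclear myeloid-derived suppressor cells 8 of 8 (2.11). Of plasmacytoid dendritic cell markers 7 of 7 were below 0 (-0.53), and of naive T cell markers 4 of 4 (-0.19). The summed level of the plasmacytoid dendritic cell markers still had a median of 141 CPM in healthy dogs and 150 CPM in OS. Conventional dendritic cell markers had 4 of 7 below 0 (-0.11), plasma cell markers 5 of 8 (-0.06), eosinophil and basophil markers 5 of 6 (-0.21), T cell markers 4 of 9 (0.05), cytotoxic markers 3 of 10 (0.08), platelet markers 1 of 7 (0.28) and erythrocyte markers 2 of 6 (1.63). The summed erythrocyte level went the other way, with a median of 4.70 CPM in healthy dogs and 0.27 CPM in OS, where the highest dog stood at 549 CPM. So did that of eosinophil and basophil markers, at 140 and 171 CPM, and that of T cell markers, at 1473 and 1353 CPM.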
